A study of Mus musculus with 8 samples.

Results

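The 10 genes *Tgfb1*, *Tgfb2*, *Tgfb3*, *Tgfbr1*, *Tgfbr2*, *Tgfbr3*, *Inhba*, *Inhbb*, *Fst* and *Ltbp1* were chosen by name as genes of TGF-β and activin signaling, among 21938 protein-coding genes of the annotation. Peaks of PBRM1 and BRG1 were collected for each within 2000 bp of any of its transcription start sites (the promoter) and across its gene body, which together are its region. PBRM1 (also BAF180, the "Baf" of the pooled list) is a bromodomain subunit of the PBAF form of the SWI/SNF chromatin remodeler, and BRG1 is an ATPase of SWI/SNF.

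The data were peak lists of ChIC-Seq, in which an antibody directs MNase to cut the DNA around its antigen. Primary stromal cells had been isolated from the uteri of WT mice, 8 to 12 weeks old, on day 4 (D4), and each antibody had 3 replicate lists and 1 pooled list. By the labels, the libraries share the genotype, the day and the method of preparation and differ in the antibody. The labels give day 4 of pregnancy in one field and pseudopregnant uterine horns, from 5 to 10 mice, in another.

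Each preparation combined several animals and was plated for some hours before fixation, and the labels do not say whether same-numbered libraries came from one preparation. The labels give 50000 cells per library and 5 minutes of fixation. The methods give a range of cell numbers that lies wholly above 50000, and a range of fixation times that starts at 5 minutes. The methods describe staining for vimentin and cytokeratin as the check of purity. The 2 IgG libraries of the series were not analysed here, so that no control signal stands behind any peak.

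The replicate lists held 21912 to 26363 peaks for PBRM1, from 8868777 to 16505239 fragments. Those of BRG1 held 36656 to 40610 peaks from 11506964 to 14595089 fragments. The deepest library, PBRM1 replicate 3, had the fewest peaks, and fragments were longer with PBRM1 (177 to 188 bp) than with BRG1 (149 to 154 bp). The part of list length and fragment length in the comparisons of the antibodies was not tested beyond the scaling by list length given with the counts. Of the stromal markers listed, 4 of 7 (*Vim*, *Pdgfra*, *Hoxa10* and *Pgr*) had a promoter peak in all 6 replicates, against 51.9% of protein-coding genes. *Col3a1* had one in 2 PBRM1 replicates and in no BRG1 replicate. All 6 replicates had one at 1 of 6 epithelial markers (*Krt7*), 0 of 3 endothelial markers and 1 of 3 smooth muscle markers (*Des*). None of the 6 epithelial markers lacked a promoter peak in every replicate. A further 2 of 7 stromal and 3 of 6 epithelial markers had one in all 3 BRG1 but not all 3 PBRM1 replicates. So did 2 of 3 endothelial and 1 of 3 smooth muscle markers. Over all protein-coding genes, this class is the gap between the 61.4% with one in all 3 BRG1 replicates and the 51.9% with one in all 6. Of 3 leukocyte markers, none had a promoter peak in any list. A promoter peak is not a measure of expression, and the part of other cell types in the peaks was not tested.

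TGF-β ligands are secreted in a latent complex that LTBP proteins hold in the extracellular matrix. The active ligand binds the type II receptor TGFBR2, which activates the type I receptor TGFBR1 and through it the SMAD proteins, while TGFBR3 (betaglycan) is a coreceptor. Activins are dimers of the inhibin β chains, encoded by *Inhba* and *Inhbb*, and follistatin, the product of *Fst*, binds and inhibits them. In the uterus these pathways are known for roles in decidualization, the conversion of the stroma that accompanies implantation.

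The sequences of 6 occupied sites are shown first, since the results refer to them. Each is a stretch of the plus strand of GRCm38 that runs from 100 bases before to 100 bases after the pooled BRG1 summit. The stretch of *Tgfbr1* has the same length but ends at the base before the gene. Capitals mark matches, on either strand, to 8 short motifs. These are the AP-1 motif (TGANTCA), a SMAD motif (CAGACA), the GC box (GGGCGG), an E-box (CATCTG), a motif of GATA factors (AGATAA), the box spelled CCAAT, the TEAD motif (GGAATG), and the half-site of steroid receptors (TGTTCT). The first *Tgfbr2* site was picked by rule as the only site outside promoters found in all 6 replicates, and the other 5 were chosen after their values were seen.
Tgfbr2 intron, all 6 replicates, chr9:116099566-116099766: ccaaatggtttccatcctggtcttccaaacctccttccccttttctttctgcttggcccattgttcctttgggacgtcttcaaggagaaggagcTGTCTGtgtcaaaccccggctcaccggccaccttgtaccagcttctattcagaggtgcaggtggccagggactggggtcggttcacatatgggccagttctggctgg
Tgfbr2 intron, BRG1 replicates only, chr9:116138801-116139001: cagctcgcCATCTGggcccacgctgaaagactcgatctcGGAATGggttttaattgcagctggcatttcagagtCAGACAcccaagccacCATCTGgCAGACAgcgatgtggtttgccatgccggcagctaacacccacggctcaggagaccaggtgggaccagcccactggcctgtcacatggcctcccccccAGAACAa
Tgfbr3 intron, BRG1 replicates only, chr5:107116933-107117133: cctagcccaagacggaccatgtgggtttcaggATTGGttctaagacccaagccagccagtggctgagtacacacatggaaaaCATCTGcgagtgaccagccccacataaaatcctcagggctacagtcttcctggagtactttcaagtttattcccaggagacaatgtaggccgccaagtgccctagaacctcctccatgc
Tgfbr1 promoter, chr4:47353021-47353221: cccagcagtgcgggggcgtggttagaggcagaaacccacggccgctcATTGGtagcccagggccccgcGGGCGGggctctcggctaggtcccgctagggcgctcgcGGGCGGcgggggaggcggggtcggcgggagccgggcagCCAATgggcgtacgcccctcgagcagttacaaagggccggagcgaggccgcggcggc
Tgfb3 upstream, chr12:86079356-86079556: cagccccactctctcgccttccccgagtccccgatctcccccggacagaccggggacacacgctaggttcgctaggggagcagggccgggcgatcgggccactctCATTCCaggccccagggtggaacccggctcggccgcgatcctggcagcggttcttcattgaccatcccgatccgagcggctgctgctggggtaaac
Fst upstream, chr13:114460302-114460502: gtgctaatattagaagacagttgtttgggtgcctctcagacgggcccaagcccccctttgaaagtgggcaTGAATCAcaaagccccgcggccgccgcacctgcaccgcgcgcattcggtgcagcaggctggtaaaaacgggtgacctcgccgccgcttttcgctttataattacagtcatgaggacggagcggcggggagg

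In the second intronic window of *Tgfbr2*, SMAD and E-box letters each occurred at 2 places, beside 1 TEAD and 1 steroid half-site match. Among 643 windows of the same length at sites outside promoters with a peak in all 3 BRG1 and no PBRM1 replicate, 19.8% held the SMAD letters and 20.7% the E-box letters. The TEAD letters were in 11.8% of them and the steroid half-site in 15.6%. The *Tgfbr3* window belongs to the same class and held 1 E-box and 1 CCAAT match, and 21.0% of those windows held CCAAT. The first *Tgfbr2* window held 1 SMAD match, and 17.8% of 803 windows at sites outside promoters found in all 6 replicates held at least 1. The *Tgfbr1* window held 2 GC boxes and 2 CCAAT matches, letters that occurred in 63.1% and 29.2% of 10617 windows at promoter sites found in all 6. The AP-1 match in the *Fst* window is of a kind found in 2.77% of those promoter windows, and the TEAD match in the *Tgfb3* window of a kind found in 6.10%. All these shares are of windows with at least 1 match, and windows with 2 were not counted apart. Matches to short letters are a description of the sequence and not evidence of a bound factor.

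PBRM1 and BRG1 were both found at the promoters of nearly all of these genes. A promoter peak was present in all 6 replicates for 9 of the 10 genes, against 51.9% of protein-coding genes. All 3 PBRM1 replicates had one at 9 genes (52.2% of protein-coding genes) and all 3 BRG1 replicates at 10 (61.4%). The exception was *Inhbb*, and none of the 10 lacked a promoter peak in every replicate, as 29.6% of protein-coding genes did. The height of a peak is given as fold enrichment, the pileup at its summit over the local background of the same library. For the strongest promoter peak of each gene it lay between 3.14 and 9.25 over all replicates. Ranked among the strongest promoter peaks of all genes in the same list, these peaks stood between the 0.283 and the 71.4 percentile.

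**Figure D1:**
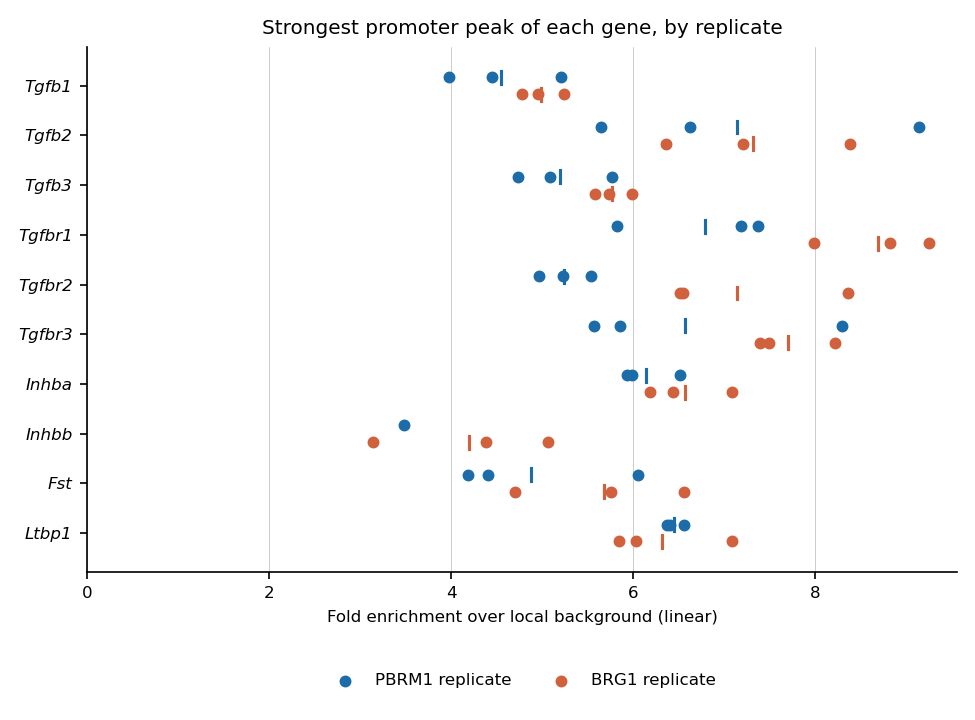
Fold enrichment of the strongest promoter peak of each gene (linear axis), with 1 point per replicate list and a short bar at the mean where all 3 replicates of an antibody had a peak. *Tgfbr1* and *Tgfbr2* are the genes whose BRG1 points all lie to the right of their PBRM1 points, and *Inhbb* has a single PBRM1 point.

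Among the ligands, the strongest promoter peak of *Tgfb1* had a fold enrichment of 4.45, 3.98 and 5.20 in the 3 PBRM1 replicates and of 4.95, 4.78 and 5.24 in the 3 BRG1 replicates. The antibodies overlapped. *Tgfb1* has 5 start sites in the annotation, spread over several kilobases, and carried a pair of sites found in all 6 replicates. The upstream site, chr7:25686764-25688396, averaged 3.70 ± 0.443 with PBRM1 and 4.58 ± 0.510 with BRG1 (SD, n = 3). Within it the pooled PBRM1 and BRG1 summits lay 1306 bp apart, so that 1 merged site need not be 1 place of binding. The downstream site, chr7:25688862-25689612, averaged 4.54 ± 0.619 and 4.56 ± 0.597 (SD, n = 3). *Tgfb1* was thus the only one of the 10 genes with more than 1 promoter site in all 6 replicates.

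*Tgfb2* had the highest single PBRM1 value of the set. Its promoter peak reached 9.14, 6.62 and 5.64 with PBRM1 and 6.36, 8.38 and 7.21 with BRG1. PBRM1 replicate 1 stood above every BRG1 replicate and PBRM1 replicate 3 below them. The site, chr1:186705106-186706167, covers the 5′ UTR, and an antisense transcript (Gm29491) starts 5 bp from a *Tgfb2* start site, so that the peak cannot be assigned to either. A weaker site near the start, chr1:186704228-186704715, had a peak in 1 PBRM1 and 1 BRG1 replicate.

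*Tgfb3* had a single peak in every replicate list, at chr12:86079077-86079694, upstream of its only annotated start site. Its fold enrichment was 5.77, 5.09 and 4.73 with PBRM1 and 5.99, 5.73 and 5.58 with BRG1. The summits of the 6 lists lay 372 to 528 bp upstream, so that this site was placed alike with both antibodies. The start of a noncoding transcript (Gm48008) lies 397 bp from that of *Tgfb3*.

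The activin genes differed from each other. The promoter peak of *Inhba*, at chr13:16011830-16012662, had a fold enrichment of 5.93, 6.51 and 5.98 with PBRM1 and 6.18, 6.44 and 7.08 with BRG1. A further *Inhba* site over coding sequence, chr13:16017327-16018036, was found in 2 PBRM1 and 3 BRG1 replicates, at 4.22 to 5.66 with BRG1. It was the only site of the 10 genes found in exactly 5 replicates.

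*Inhbb* was the least occupied gene. Its BRG1 peaks reached 3.14, 5.06 and 4.38 at chr1:119421732-119422163, in the 5′ UTR. No PBRM1 replicate had a peak there, although the pooled PBRM1 list did, at 3.02. PBRM1 replicate 3 alone had a peak within 2000 bp, at 3.48 and 1589 bp upstream, where no BRG1 list had one. The pooled lists each reach weaker sites than single replicates, and a peak missing from a replicate list was not detectable at that depth rather than shown to be absent.

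*Fst* was covered by a row of short sites instead of 1 broad peak. The strongest, chr13:114460283-114460724, lies 1451 bp upstream of the gene and was found in all 6 replicates, at 4.62, 4.40 and 4.18 with PBRM1 and 5.76, 6.56 and 4.70 with BRG1. At this site every BRG1 value was above every PBRM1 value. Compared by the strongest promoter peak of each list, the antibodies overlapped, because PBRM1 replicate 1 had its strongest peak, 6.05, at another site 206 bp upstream. Sites at chr13:114459465-114459742 (upstream) and chr13:114457237-114457490 (first kilobases of the gene) were found in all 3 BRG1 replicates, at 3.62 ± 0.511 and 3.79 ± 0.286 (SD, n = 3), and in no PBRM1 replicate, while both had a pooled PBRM1 peak. The site just inside the gene, chr13:114458480-114458874, had a pooled peak of BRG1 only and was found in 2 BRG1 replicates. The antisense transcript Gm47040 starts 77 bp from a start site of *Fst*.

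Among the receptors, *Tgfbr1* had the highest mean fold enrichment of the set with BRG1. Its values were 7.37, 7.18 and 5.82 in PBRM1 and 7.98, 8.82 and 9.25 in BRG1. All 3 BRG1 values were above all 3 PBRM1 values, and the means were 6.79 ± 0.848 (PBRM1) and 8.68 ± 0.647 (BRG1, both SD with n = 3). The two-sided exact permutation test gave p = 0.1, the smallest it allows with 3 against 3, and 0.241 after Benjamini-Hochberg adjustment over 11376 genes. The site, chr4:47352364-47353466, spans the start of the gene, and its pooled BRG1 summit lies 9 bp upstream of it.

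*Tgfbr2* had promoter values of 5.53, 5.23 and 4.96 with PBRM1 and 6.55, 8.36 and 6.51 with BRG1, which did not overlap either. PBRM1 averaged 5.24 ± 0.284 and BRG1 averaged 7.14 ± 1.06 (SD, n = 3). The exact permutation test gave the same p = 0.1 (adjusted 0.241). *Tgfbr3* had values of 8.29, 5.57 and 5.85 with PBRM1 and 8.21, 7.39 and 7.49 with BRG1. Here PBRM1 replicate 1, the shallowest library, was above all BRG1 replicates and the exact permutation p was 0.4. The *Tgfbr3* site, chr5:107288772-107289923, covers the first exon, as does that of *Tgfbr2*, chr9:116174470-116175626.

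*Ltbp1*, which encodes the latent TGF-β binding protein, had promoter values of 6.40, 6.56 and 6.37 with PBRM1 and 5.84, 6.03 and 7.08 with BRG1 at chr17:75004957-75006562. It was the only gene with a mean BRG1 value below its mean PBRM1 value, by less than the spread between the BRG1 replicates. The start of shorter *Ltbp1* transcripts, inside the gene, carried a weaker site, chr17:75178079-75178885. There BRG1 peaks reached 3.93, 5.56 and 4.99, and of the PBRM1 replicates only the second had one, at 3.59.

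Higher BRG1 values at a promoter were not particular to these genes. Every BRG1 value was above every PBRM1 value at 2 of the 9 genes with a promoter peak in all 6 replicates, against 41.0% of 11376 such genes. Without PBRM1 replicate 1, the shallowest library, the count was 5 of 9, with *Tgfb3*, *Tgfbr3* and *Fst* added, against 65.4% of 11614 genes with a promoter peak in the other 5 replicates. Every PBRM1 value was above every BRG1 value at 0 of the 9, against 0.492%. When the peaks of each list were ranked by q-value instead, 0 of the 9 were nearer the top in every BRG1 replicate, against 12.8% of all 11376. *Tgfb2* and *Ltbp1* were nearer the top in every PBRM1 replicate, against 13.2%. BRG1 lists are longer, so that equal ranks are not equal shares of a list. The median fold of BRG1 over PBRM1 was 1.11 for the 9 genes and 1.25 for all. On the log2 scale the genes ran from -0.03 for *Ltbp1* to 0.44 for *Tgfbr2*, and the median over all genes was 0.33. Fold enrichment is set against each library's own background, and the part of differences between libraries in this general shift was not tested.

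**Figure D2:**
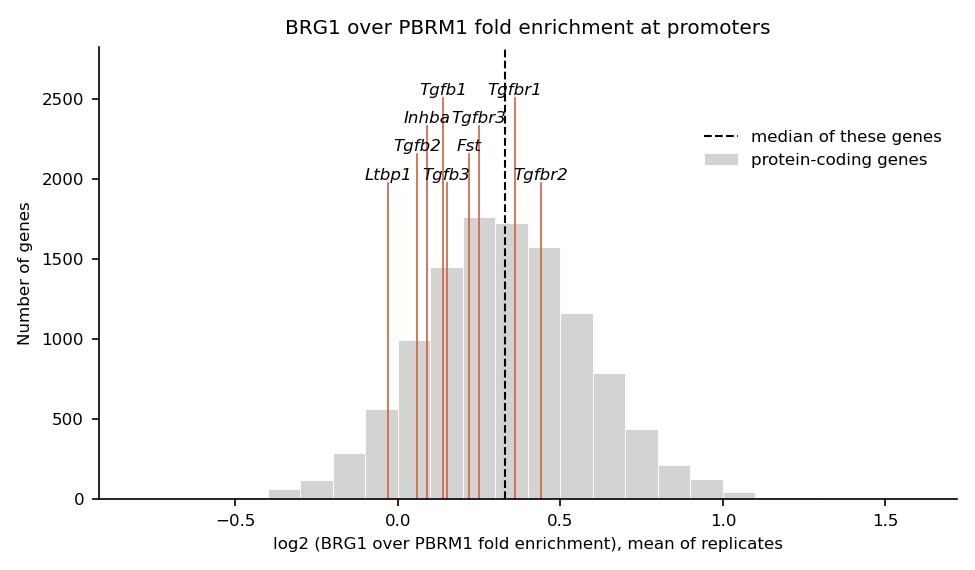
Number of protein-coding genes with a promoter peak in all 6 replicates, by the log2 ratio of BRG1 over PBRM1 fold enrichment (mean of log2 values, 3 replicates each, bins of 0.1), with the 9 genes marked by lines and the median of all 11376 genes, 0.33, by a dashed line. *Tgfbr1* at 0.36 and *Tgfbr2* at 0.44 lie to the right of the median and the other 7 to its left.

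Of all genes, *Ppfia3* had promoter values most like those of *Tgfbr1*, at a Euclidean distance of 0.120 over the 6 log2 fold enrichments. *Ushbp1* and *Babam1*, which had the same peaks, followed at 0.138.

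Away from promoters, BRG1 peaks were more frequent than PBRM1 peaks, mostly in *Tgfbr3* and *Ltbp1*. The gene bodies outside promoters held 6, 4 and 2 peaks in the PBRM1 replicates and 19, 17 and 21 in the BRG1 replicates. With promoter peaks included, the regions of the 10 genes held 17, 17 and 14 peaks in the PBRM1 replicates and 40, 33 and 39 in the BRG1 replicates. Per 10000 peaks of the same list these region counts were 7.40, 6.45 and 6.39 for PBRM1 and 9.85, 9.00 and 10.4 for BRG1. The groups did not overlap on either scale. Over all protein-coding genes, bodies outside promoters held 3591 to 5009 PBRM1 and 8570 to 10266 BRG1 peaks, which did not overlap either. The scaled total over the regions of all genes was not counted, so that the scaled difference cannot be read as particular to the set.

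Every BRG1 replicate had more region peaks than every PBRM1 replicate at 5 of the 10 genes, against 7.25% of protein-coding genes. These were *Tgfbr1*, *Tgfbr2*, *Tgfbr3*, *Fst* and *Ltbp1*. Among 5195 genes with a region of at least 50 kb, a limit set after the counts were seen, the share was 18.7%, against 4 of the 5 genes of the set of that length. The exact permutation test gave p = 0.1 at each of the 5 genes, the smallest possible, and an adjusted p of 1.00 over 21938 genes. With only peaks of −log10 q of at least 5, the counts were separated at 2 of the 10 genes, *Tgfbr3* and *Ltbp1*, against 5.69% of protein-coding genes. Per 10000 peaks of the list they were separated at 3, *Tgfbr1*, *Tgfbr3* and *Ltbp1*, against 4.36%.

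**Figure D3:**
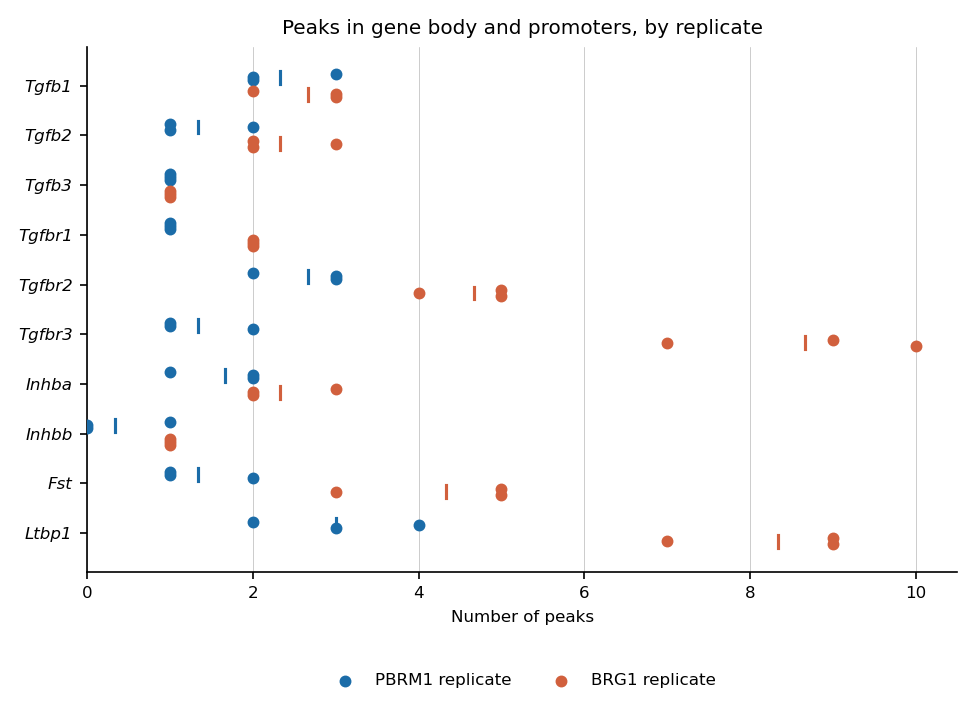
Number of peaks in the region of each gene (gene body plus promoters), with 1 point per replicate list, points of equal value shifted in height, and a short bar at the mean of the 3 replicates. BRG1 points lie apart from PBRM1 points at *Tgfbr1*, *Tgfbr2*, *Tgfbr3*, *Fst* and *Ltbp1*, with the widest gap at *Tgfbr3* (1 to 2 against 7 to 10 peaks).

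*Tgfbr3* had 2, 1 and 1 region peaks with PBRM1 and 10, 7 and 9 with BRG1. Outside the promoter, PBRM1 had 1, 0 and 0 peaks and BRG1 9, 6 and 8. These BRG1 peaks were spread over the introns and differed between replicates. Of 22 sites of *Tgfbr3* outside its promoter, 15 had a peak in at least 1 BRG1 replicate, but 1 of them was found in all 3, 5 in 2 and 9 in a single replicate. The site found in all 3, chr5:107116766-107117365, reached 4.57, 3.95 and 6.05 with BRG1 and had no peak in any PBRM1 replicate, while the pooled PBRM1 list had one at 2.67. Sites with a pooled peak of BRG1 only and support in 2 BRG1 replicates were chr5:107157579-107157889 and chr5:107195621-107196299.

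*Ltbp1*, the longest of the genes, had 3, 4 and 2 region peaks with PBRM1 and 9, 7 and 9 with BRG1. Of its 17 sites outside promoters, 11 had a peak in at least 1 BRG1 replicate and 3 in at least 1 PBRM1 replicate. The intronic site chr17:75033285-75033584 was found in all 3 BRG1 replicates, at 4.94 ± 0.263 (SD, n = 3), and in 1 PBRM1 replicate, at 4.00. Another, chr17:75013987-75015227, was found in 2 replicates of each antibody. A further intronic site, chr17:75087334-75087541, had a pooled BRG1 peak only and was found in 2 BRG1 replicates.

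*Tgfbr2* had 3, 3 and 2 region peaks with PBRM1 and 5, 4 and 5 with BRG1. It held the only site outside a promoter that was found in all 6 replicates, in an intron at chr9:116098776-116099958, whose BRG1 summit window is the first sequence shown. Its fold enrichment was 4.41, 4.63 and 3.52 with PBRM1 and 5.49, 4.97 and 5.49 with BRG1, without overlap between the antibodies. The pooled summits of PBRM1 and BRG1 lay 312 bp apart within it.

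A second intronic site of *Tgfbr2*, chr9:116138516-116139008, reached 4.76, 7.43 and 4.56 with BRG1 and had no peak in any PBRM1 replicate, with a pooled PBRM1 peak at 3.50. The site at the 3′ end of the gene, chr9:116084899-116085116, had peaks in 2 PBRM1 replicates (4.79 and 5.03) and 1 BRG1 replicate (7.00). Both pooled lists had a peak there, at 6.12 for PBRM1 and 5.78 for BRG1. An intronic site with a pooled BRG1 peak only, chr9:116152961-116153312, was found in 2 BRG1 replicates.

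The difference at *Tgfbr1* rested on 1 extra peak per list. PBRM1 had 1 region peak in each replicate and BRG1 2. In BRG1 replicates 1 and 3 the second peak was the site just inside the gene, chr4:47353620-47353939, at 2.98 and 2.75, which had a pooled peak of BRG1 only. In BRG1 replicate 2 one wide peak, of 1108 bp, covered both promoter sites, and its second peak lay elsewhere in the gene. The pooled PBRM1 list added 4 intronic peaks in *Tgfbr1* that no replicate list held. *Fst* had 2, 1 and 1 region peaks with PBRM1 and 5, 3 and 5 with BRG1, all of them promoter peaks.

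**Figure D4:**
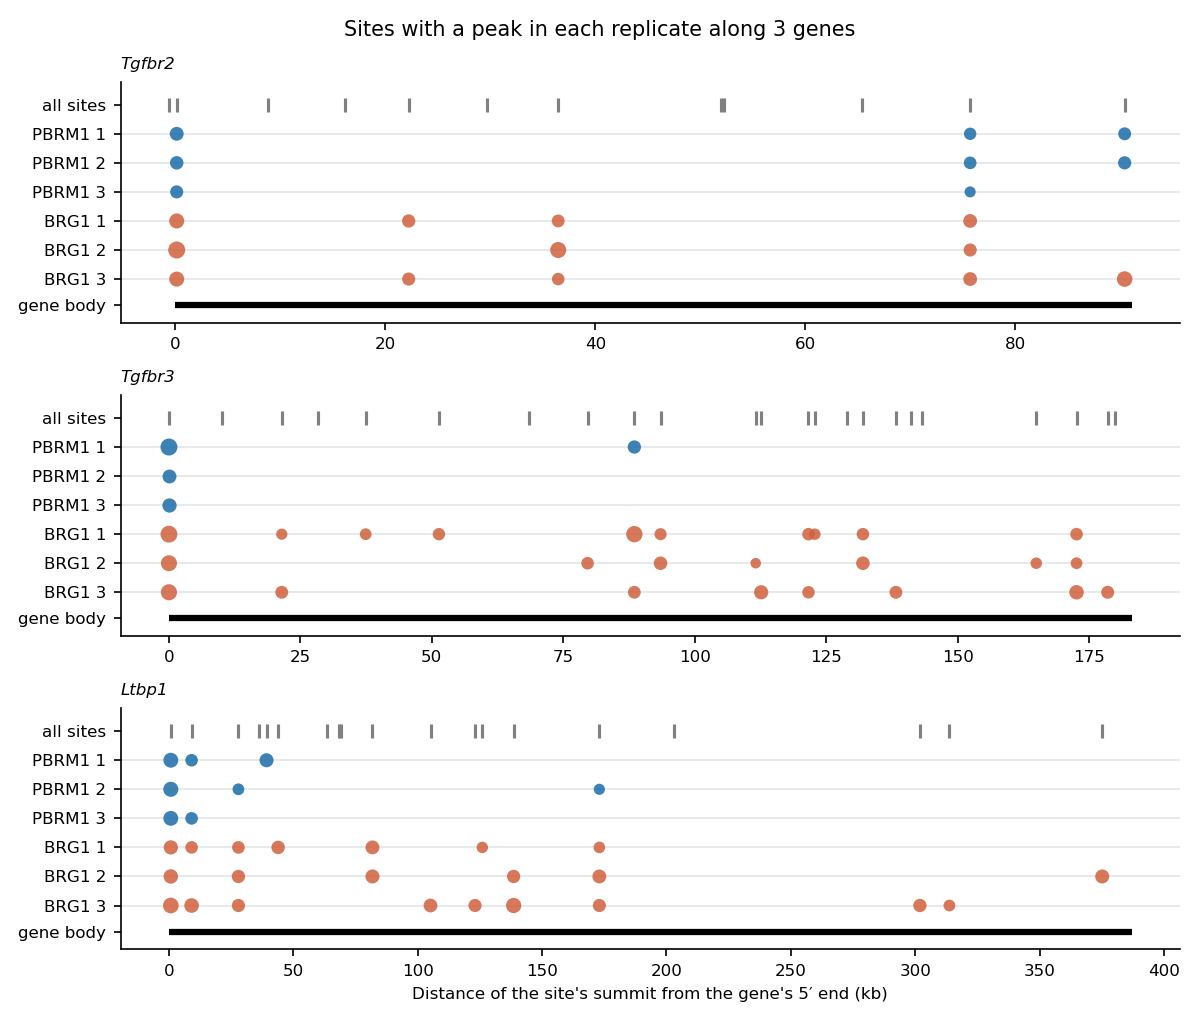
Sites along *Tgfbr2*, *Tgfbr3* and *Ltbp1* by the distance of the summit from the 5′ end of the gene (kb), with a row of points for each replicate list, point area proportional to fold enrichment, ticks for all sites of the pooled lists and a bar for the gene body. The promoter site at 0 has a point in all 6 rows, the only other full column is the intronic site of *Tgfbr2*, and of the 15 sites outside the promoter of *Tgfbr3* with a BRG1 point, 9 have it in a single BRG1 row.

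Outside promoters, the bodies of the 10 genes held 6, 4 and 2 PBRM1 peaks and 19, 17 and 21 BRG1 peaks, which is 4.75-fold more with BRG1. The same ratio over all protein-coding gene bodies was 2.23, from means of 4143 ± 760 and 9258 ± 892 peaks (SD, n = 3). Without *Tgfbr3*, left out after its values were seen, the remaining 9 genes held 5, 4 and 2 PBRM1 peaks and 10, 11 and 13 BRG1 peaks, a ratio of 3.09. Of these, *Ltbp1* held 2, 1 and 1 PBRM1 peaks and 6, 4 and 7 BRG1 peaks. The ratio thus rests in good part on *Ltbp1* and is not a value for the other genes.

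Merged into sites, the pooled lists gave 87 sites in the regions of the 10 genes, of which 25 lay at promoters. Of these 87, 40 (46.0%) had a pooled peak of both antibodies, against 49.0% of 59716 sites in the regions of protein-coding genes. BRG1 alone had 35 and PBRM1 alone 12. In all 6 replicates 11 sites (12.6%) were found, against 19.1%, and 10 of the 11 were promoter sites. Outside the promoters of these genes it was 1 of 62, of which 3 lay near a start site of another gene. The share was 2.48% of 32314 sites in protein-coding gene bodies away from the start sites of any gene. No replicate list held a peak at 33 of the 87 sites, which rest on the pooled calls alone, and all 12 PBRM1-only sites were found in at most 1 replicate. A peak in all 3 BRG1 and no PBRM1 replicate was seen at 6 sites, against 2.08% of the 59716. Of these, 2 were in *Fst* and 1 each in *Inhbb*, *Tgfbr1*, *Tgfbr2* and *Tgfbr3*. At the *Tgfbr1* site, the peak of BRG1 replicate 2 is the wide one that also covers the main promoter site, where all 3 PBRM1 replicates had peaks.

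Among sites outside promoters with a peak in at least 1 BRG1 replicate, 14.7% of the 34 in these genes were found in all 3 BRG1 replicates, against 19.7% of 14432 over all protein-coding genes.

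The other genes of the pathway are given as counts by role. A promoter peak in all 6 replicates was present at 24 of 38 listed genes, against 51.9% of protein-coding genes. All 10 transducers and feedback genes had one, among them *Smad2* and *Smad4*, which encode a receptor-regulated SMAD and the common SMAD. Of 7 further receptors and coreceptors 5 had one, of 10 genes of the latent complex and its activation 6, and of 11 activin-related ligands and inhibitors 3. A further 6 genes had a promoter peak in all 3 BRG1 but not all 3 PBRM1 replicates. Over all protein-coding genes, 61.4% had one in all 3 BRG1 and 51.9% in all 6 replicates. The gap between these shares is the part of all genes in this class, and the 6 of 38 were not tested against it.

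*Inhbe*, another inhibin β chain, and *Mstn*, which encodes myostatin, had no promoter peak in any of the 8 lists. The highest pooled BRG1 values of the list were 12.4 at *Smad2*, 10.9 at *Smad4* and 10.9 at *Bambi*, which encodes a pseudoreceptor. All 3 were above the highest pooled BRG1 value of the 10 genes, 8.98 at *Tgfbr1*.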

How the data were processed

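ChIC-Seq peak lists for PBRM1 and BRG1 were analysed, 3 replicate lists and 1 pooled list per antibody, grouped by the labels. By the methods, the authors used Bowtie2 to place trimmed read pairs on mm10, dropped multimapping and duplicate reads, and ran MACS on each replicate and on the pooled fragments. The file headers give MACS version 2.2.7.1, a q-value cutoff of 0.05, a local background of 10000 bp and no control file, so that peaks also include any place that collects fragments with every antibody. Each deposited list holds a pileup signal, a −log10 p-value and −log10 q-value, and a fold enrichment (the ratio of pileup to local background) for every peak, taken here as the authors deposited them. They are not scaled between libraries. The pileup and p-values were not used.

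Promoters were 2000 bp around every start site of a gene in GENCODE M21. No peak ended beyond a chromosome of the GRCm38 reference from which the sequences came. Sites were pooled peaks of either antibody merged where they shared at least 1 bp. Antibodies were compared with the two-sided exact permutation test of means, which cannot give p below 0.1 with 3 against 3. Benjamini-Hochberg adjustment ran over all genes. Nothing in the labels shows that replicates came from separate animals. A figure legend of the paper calls the 3 replicates of its signal tracks biological, without saying whether their animals were separate. The p-values are therefore read as measuring the spread between these libraries. Counts were read against all protein-coding genes.

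The genes, lists and tests were chosen with earlier results of these data known. Named sites were those in at least 5 of 6 replicates, the strongest of each gene, and single-antibody sites in at least 2, and any other site named was chosen after its values were seen. Other pathway genes were named where no list had a promoter peak or where they were among the 3 highest by pooled BRG1. The alternatives were stricter peaks, other promoter distances, start sites of protein-coding transcripts only, ranks, 1 fixed site per gene, a larger overlap, scaling by list length, the replicate block, and each replicate left out. Interval and permutation functions were tested on simulated data. Python 3.11.15, numpy 2.4.6, pandas 2.3.3, pysam 0.24.0 and matplotlib 3.10.9 were used.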

Additional observations from a re-analysis of the deposited data

How the results depend on the processing

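The 9 genes with a promoter peak in all 6 replicates became 8 to 9, and the 11 sites found in all 6 became 8 to 12, under every alternative run. The 5 genes with more region peaks in every BRG1 replicate became 2 (*Tgfbr3* and *Ltbp1*) with only peaks of −log10 q of at least 5, and also 2 with a fold enrichment of at least 4 (5.67% of all genes). Per 10000 peaks of the list they became 3 (*Tgfbr1*, *Tgfbr3* and *Ltbp1*), and the differences of *Tgfb1* (-0.303) and *Inhba* (-0.0831) reversed. *Tgfb3* had 1 region peak in every replicate list, so that its scaled values, above with PBRM1, were fixed by list length. Leaving out a replicate gave 5 to 6 genes with more region peaks in every BRG1 replicate. Every promoter value was above in BRG1 at 2 to 5 genes, in place of 2. The 5 came without PBRM1 replicate 1, which added *Tgfb3*, *Tgfbr3* and *Fst* to *Tgfbr1* and *Tgfbr2*, against 65.4% of all genes. For the other omissions, and for region peaks under any omission, the shares of all genes were not counted. Those counts cannot be read as particular to the set. Ranked by q-value, 0 genes were separated toward BRG1 (12.8% of all genes were) and 2, *Tgfb2* and *Ltbp1*, toward PBRM1 (13.2%), and the sign-turned log2 rank differences of *Tgfb1* (-0.184), *Tgfb2* (-1.03), *Tgfb3* (-0.280), *Tgfbr3* (-0.220), *Inhba* (-0.648) and *Fst* (-0.0112) reversed. BRG1 lists are longer, so that equal ranks do not mean equal shares of a list. With promoters of 5000 bp, the difference of *Tgfb3* reversed to -1.04, and the cause was not tested. Leaving out single replicates, the promoter difference of *Tgfb2* ranged from -0.564 to 1.19 and that of *Ltbp1* from -0.509 to 0.109. With the replicate block, 4 genes had a higher promoter value in BRG1 in every same-numbered pair, and 6 had more region peaks. The shares of all genes were not counted for this setting, so that these counts cannot be read as particular to the set. The paired exact sign-flip test cannot go below p = 0.25. Deviations of same-numbered libraries correlated at -0.0217 to 0.00414 over genes. Such values cannot decide whether same-numbered libraries came from one preparation, since libraries of one preparation need not deviate alike. With 3 replicates per antibody no test could pass 0.05.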
